A study of Mus musculus with 2 samples.

Results

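Interferon response genes are the transcripts that cells raise after an interferon binds its receptor. The 38 genes listed here by symbol cover the type I and type II responses, and 37 of them had a row among the 32285 genes of both count matrices. Mx1 was not analysed here. Cells were isolated from mouse small-intestinal lamina propria, the tissue layer under the gut epithelium, and sorted as live EPCAM- Ter119- CD31- CD45+ cells. The CD4-Cre; Aster-A F/F pool carried floxed alleles of Aster-A, a sterol transporter encoded by Gramd1a, together with a Cre recombinase driven by CD4 regulatory sequence, which acts in developing αβ T cells (called CD4-Cre). The Aster-A F/F pool carried the same floxed alleles without Cre (called F/F). All mice were female littermates of 10 to 12 weeks that had been fasted for 16 h and given olive oil by gavage for 2 h. Cells of 3 mice were pooled for each genotype, 100000 sorted per mouse, and each pool became 1 droplet library, so there was no replicate and no test between genotypes. Values are whole counts of unique molecular identifiers (UMIs), each marking 1 captured molecule near its 3′ end, and levels (CPM) are a gene's UMIs scaled to the UMIs of all genes other than immunoglobulin genes, with no scaling by gene length.

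Type I interferons signal through IFNAR1 and IFNAR2 to a complex that contains STAT2 and IRF9 and binds the interferon-stimulated response element. Type II interferon, which T cells, innate-like T cells and NK cells make in the gut, signals through IFNGR1 and IFNGR2 to factors that bind the gamma-activated site, and IRF1 made in that response binds elements of the first kind. Many response genes take both inputs. Here 17 of the measured members were treated as type I weighted and 10 as type II weighted, from textbook knowledge of their induction.

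Promoter windows show how both elements are spread over the genes. RefSeq windows on GRCm38.p6, from 250 bases before to 50 after a start, were matched for 30 of the 38 genes. Both strands were searched for GAAANNGAAA, the core of the interferon-stimulated response element, and for TTCNNNGAA, the gamma-activated site, and matches of either kind may overlap. The first was present for 19 members (63.3%) and the second for 11 (36.7%), with 7 holding both and 7 neither. Among all 20267 genes with a window and a row, the shares were 3.92% and 9.35%. Of the type I weighted members 7 of 13 (53.8%) held the first and 2 (15.4%) the second, while of the type II weighted members 7 of 9 (77.8%) held the first and 5 (55.6%) the second. A match is a description of letters only. The 4 windows below belong to members whose levels are described in detail, and they run 5′ to 3′ along the gene with matches in capitals. Isg15 is on chr4:156200769-156201068, minus strand, and holds 3 overlapping response element cores that start 78, 72 and 66 bases before the start. Bst2 is on chr8:71537423-71537722, minus strand, with 2 cores at 130 and 124 bases before the start and a gamma-activated site at 136 that overlaps the first of them. Irf1 is on chr11:53769764-53770063, plus strand, with 1 gamma-activated site at 90. Gbp7 is on chr3:142530086-142530385, plus strand, with gamma-activated sites at 106 and 87 and a core on the other strand at 53.
Isg15: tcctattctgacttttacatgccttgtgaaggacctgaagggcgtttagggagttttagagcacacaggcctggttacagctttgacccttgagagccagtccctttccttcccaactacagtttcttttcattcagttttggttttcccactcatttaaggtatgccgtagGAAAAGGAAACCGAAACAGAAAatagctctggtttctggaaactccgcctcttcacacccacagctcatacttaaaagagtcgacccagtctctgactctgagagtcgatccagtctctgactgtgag
Bst2: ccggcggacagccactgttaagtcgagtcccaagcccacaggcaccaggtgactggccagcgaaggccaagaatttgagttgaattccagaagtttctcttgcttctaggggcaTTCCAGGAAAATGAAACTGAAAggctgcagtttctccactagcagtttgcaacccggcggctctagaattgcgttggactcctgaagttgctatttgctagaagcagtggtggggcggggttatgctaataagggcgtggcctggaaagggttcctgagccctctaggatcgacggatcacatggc
Irf1: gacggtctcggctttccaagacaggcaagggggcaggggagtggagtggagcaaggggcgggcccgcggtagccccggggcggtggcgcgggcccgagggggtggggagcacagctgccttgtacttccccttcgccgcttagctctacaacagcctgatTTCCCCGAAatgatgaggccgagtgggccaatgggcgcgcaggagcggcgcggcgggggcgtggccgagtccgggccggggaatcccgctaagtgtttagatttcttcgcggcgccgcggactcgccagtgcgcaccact
Gbp7: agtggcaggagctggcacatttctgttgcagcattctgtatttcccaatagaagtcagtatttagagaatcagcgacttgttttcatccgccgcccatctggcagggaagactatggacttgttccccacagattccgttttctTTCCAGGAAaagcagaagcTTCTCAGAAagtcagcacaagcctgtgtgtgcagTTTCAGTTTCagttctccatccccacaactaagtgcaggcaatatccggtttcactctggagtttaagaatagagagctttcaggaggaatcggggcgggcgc

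The CD4-Cre library kept 12526 cells with a median of 14031 UMIs, and the F/F library 12594 cells with a median of 15319.5. The libraries shared 47 cell barcodes. Clusters named from marker genes gave 18 classes, of which 14 held at least 100 cells over both libraries, and 8 held at least 100 in each library and were compared between genotypes. The ending -like marks that a class was named from transcripts alone, and no cluster was named plasmacytoid dendritic. Some T cell clusters met the rules of no single class and stayed unnamed, so the T classes do not hold all T cells. Free RNA differed between the pools: in plasma-like cells, a list of 9 pancreatic acinar transcripts summed to 2.13 CPM in CD4-Cre and 1254 CPM in F/F, and a list of 5 gastric transcripts to 187 and 27.7 CPM. Gramd1a stood at 44.4 CPM in CD4-Cre and 59.2 CPM in F/F CD4 T-like cells (ratio 0.750, 95% interval 0.593 to 0.949) and at 19.6 and 19.4 CPM in plasma-like cells (1.01, 0.928 to 1.10). Its interval included 1 in CD8 T-like (0.760, 0.521 to 1.12) and innate-like T-like cells (0.898, 0.691 to 1.17), and in every other compared class. The labels do not name the floxed exons, so 3′ UMIs need not report the deletion.

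Macrophage-like cells were the highest class for more members than any other class. Over the 14 larger classes, with both libraries joined, 17 of the 37 members had their highest level in macrophage-like cells, 6 in CD4 T-like, 4 in plasma-like, 3 in CD8 T-like, and 7 in ILC3-like, NK or ILC1-like, cDC2-like and cDC1-like cells. The summed level of the 37 members was 2628 CPM in CD4-Cre and 2841 CPM in F/F macrophage-like cells. Its 3 clusters differed: the cluster led by Ccl9, Ccl6 and Lyz2 had 3347 CPM in CD4-Cre and 3591 CPM in F/F, the cluster led by Itga9, Mmp13 and Pf4 had 1727 and 2063 CPM, and the cluster led by Ccl7, Cd163 and Ccl2 had 1890 and 2163 CPM. Under 3 alternative clusterings a cluster of 435, 420 or 431 cells was named monocyte-like, where the monocyte-like class here held 59, and the highest class of each member was not recomputed there. In CD4 T-like cells it was 1963 CPM in CD4-Cre and 2193 CPM in F/F. Plasma-like cells, the most numerous class with 6378 CD4-Cre and 7426 F/F cells, had 1725 and 1826 CPM. The lowest sum was in B-like cells, with 293.9 CPM in CD4-Cre and 468.0 CPM in F/F, and cDC1-like cells had 807 and 849 CPM. A pool gives levels per UMI, so for the pool as a whole fewer cells of a type and less RNA per cell cannot be told apart.

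**Figure D1:**
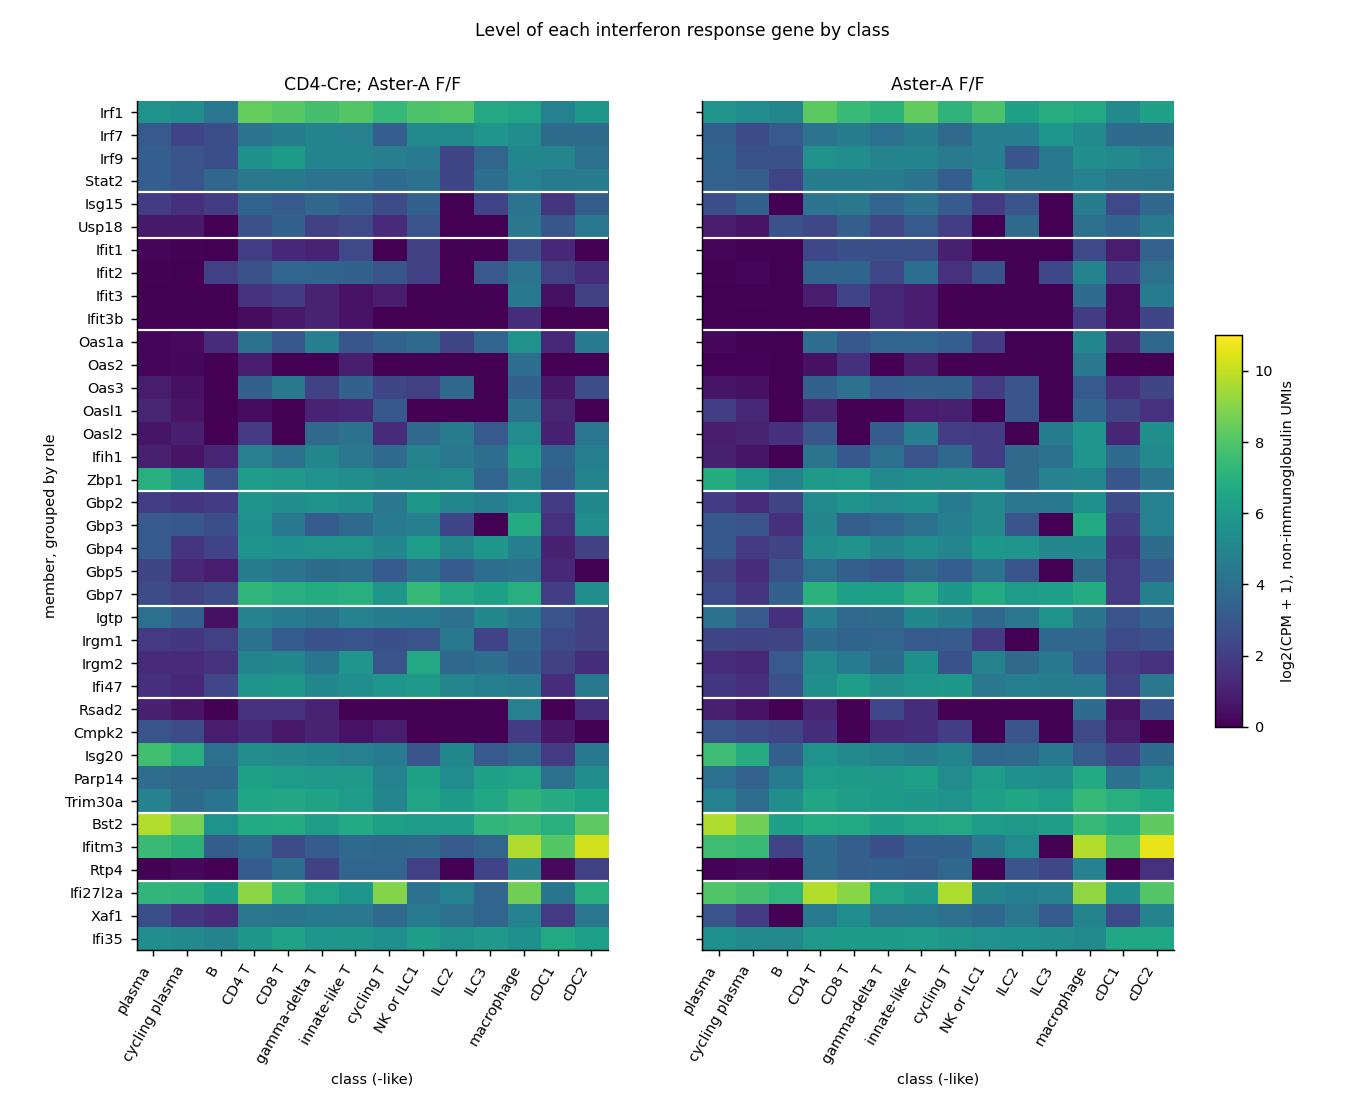
Heat map of the level of 37 interferon response genes (rows, grouped by role, white lines between groups) in 14 classes (columns), CD4-Cre; Aster-A F/F on the left and Aster-A F/F on the right. Colour gives log2(CPM + 1) over non-immunoglobulin UMIs. Bst2 is brightest in plasma-like cells, Ifitm3 in cDC2-like and macrophage-like cells, and Ifi27l2a in CD4 T-like and cycling T-like cells.

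Among the signal and transcription factors, Irf1, which is induced by type II interferon, was most abundant in T-lineage cells. Irf1 had 338 CPM in CD4-Cre and 298 CPM in F/F CD4 T-like cells, 267 and 325 CPM in innate-like T-like cells, and 244 and 241 CPM in NK or ILC1-like cells. The lowest Irf1 level was in B-like cells, at 18.8 CPM in CD4-Cre and 31.8 CPM in F/F. Irf7, which drives production of type I interferon, was highest in ILC3-like cells, at 51.7 and 53.3 CPM, and next in macrophage-like cells, at 42.6 and 37.0 CPM. The ILC3-like value rests on 14 and 13 UMIs. Irf9, the DNA-binding subunit of the type I complex, had 61.8 CPM in CD4-Cre and 41.5 CPM in F/F CD8 T-like cells. Stat2, its partner, had 28.1 CPM in CD4-Cre and 28.2 CPM in F/F macrophage-like cells, its highest class, and its lowest level was in cycling plasma-like cells.

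Isg15, a ubiquitin-like modifier, had 17.4 CPM in CD4-Cre and 23.8 CPM in F/F macrophage-like cells and 2.75 and 5.32 CPM in plasma-like cells. Usp18, which removes ISG15 and dampens the type I receptor, was highest in cDC2-like cells, at 18.8 and 21.7 CPM. IFIT proteins bind foreign RNA, and their 4 transcripts were unevenly spread. Ifit3 had 20.8 CPM in CD4-Cre and 13.6 CPM in F/F macrophage-like cells, from 37 UMIs in each library, against 0.020 and 0.0168 CPM in plasma-like cells, where each library had 1 UMI. Ifit1 had 5.05 CPM in CD4-Cre and 4.395 CPM in F/F macrophage-like cells, from 9 and 12 UMIs, and was as high in innate-like T-like cells, at 4.39 and 5.17 CPM from 10 and 6 UMIs.

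Of the 5 oligoadenylate synthetase family members, a family whose enzymes make the activator of RNase L, 4 were highest in macrophage-like cells, and Oas3 was highest in CD8 T-like cells. Oas1a had 47.7 CPM in CD4-Cre and 32.6 CPM in F/F macrophage-like cells. Oasl2 had 38.7 and 53.1 CPM there, and Ifih1, the sensor MDA5 of long double-stranded RNA, had 59.5 and 52.7 CPM. Zbp1, a sensor of Z-form nucleic acids, had its highest level in plasma-like cells, at 117 CPM in CD4-Cre and 110 CPM in F/F.

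Guanylate-binding proteins and immunity-related GTPases, which act on vacuoles of intracellular pathogens, were spread over T-lineage, NK or ILC1-like and macrophage-like cells. Gbp7 had 146 CPM in CD4-Cre and 135 CPM in F/F CD4 T-like cells, 166 and 107 CPM in NK or ILC1-like cells, and 118 and 109 CPM in macrophage-like cells. Gbp2 had 51.1 and 37.0 CPM in CD4 T-like cells and 39.8 and 45.4 CPM in macrophage-like cells. Gbp3 was highest in macrophage-like cells, at 109 CPM in CD4-Cre and 101 CPM in F/F. Irgm2 reached 97.6 CPM in CD4-Cre and 29.0 CPM in F/F NK or ILC1-like cells, from 30 and 10 UMIs. The GBP members were lower in plasma-like and cDC1-like cells: all 5 summed to 26.9 CPM in CD4-Cre and 25.1 CPM in F/F plasma-like cells and to 10.495 and 14.488 CPM in cDC1-like cells, while CD4 T-like cells had 316 and 260 CPM. Igtp, an immunity-related GTPase, differed less between these classes, with 15.3 CPM in CD4-Cre and 16.1 CPM in F/F plasma-like cells, 20.8 and 17.6 CPM in macrophage-like cells, and 28.4 and 25.1 CPM in CD4 T-like cells.

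Membrane proteins and nucleases gave plasma-like and myeloid cells their highest member levels. Bst2, tetherin, which holds budding virions at the cell surface, had 846 CPM in CD4-Cre and 819 CPM in F/F plasma-like cells and 441 and 405 CPM in cycling plasma-like cells. Barcodes of 150 to 350 UMIs, taken as free RNA, held Bst2 at 574 CPM in CD4-Cre and 532 CPM in F/F, and the part of free RNA in the Bst2 levels of other classes was not tested. Isg20, an exonuclease of single-stranded RNA, had 205 and 193 CPM in plasma-like cells and 41.9 and 48.1 CPM in CD4 T-like cells. Ifitm3, which blocks virus entry at endosomes, had 1214 CPM in CD4-Cre and 1610 CPM in F/F cDC2-like cells and 836 and 843 CPM in macrophage-like cells. Trim30a, a ubiquitin ligase family member, had 140 and 164 CPM in macrophage-like cells and 111 and 123 CPM in cDC1-like cells.

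Ifi27l2a, which encodes a small hydrophobic protein induced by type I interferon (chr12:103442167-103443680, minus strand, GRCm38), was highest in CD4 T-like cells. It had 542 CPM in CD4-Cre and 858 CPM in F/F CD4 T-like cells, 492 and 810 CPM in cycling T-like cells, and 388 and 574 CPM in macrophage-like cells. In innate-like T-like cells it had 54.0 and 58.5 CPM, and in NK or ILC1-like cells 16.3 and 31.9 CPM. Within CD4 T-like cells it was uneven: the cluster led by Tnfrsf4, Foxp3 and Areg had 860 CPM in CD4-Cre and 1385 CPM in F/F, while the cluster led by Cd40lg and Cd4 had 281 and 418 CPM.

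Patterns across classes were alike within the type II weighted group. Over the 14 classes, Pearson correlations of log2(CPM + 1) had a median of 0.52 between type I weighted members, 0.78 between type II weighted members and 0.41 between the groups. These are descriptions, since the classes share libraries, depth and free RNA. The groups also differ in level. Median CPM over the classes ran from 0 (Oas2) to 138 (Ifi27l2a) for type I weighted members, with Ifit3 at 0.389 and Rsad2 at 0.523. For type II weighted members it ran from 6.62 (Irgm1) to 129 (Irf1). The part of counting noise in the correlations was not tested. The pattern most like that of Gbp7 was that of Gbp2 (r = 0.97), then Parp14 (0.96). Irf1 was most like Gbp5 (0.93), and Irf7 most like Parp14 (0.87).

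Joint detection in single cells is limited by depth, since most signature transcripts stood at a few CPM. Of 9 type I signature genes with a row (Isg15, Ifit1, Ifit2, Ifit3, Ifit3b, Rsad2, Oasl1, Cmpk2 and Usp18), 3 or more were found in 7 of 12379 CD4-Cre cells (0.0565%, exact binomial 95% interval 0.0227 to 0.116%) and 8 of 12449 F/F cells (0.0643%, 0.0277 to 0.127%) after thinning each cell to 1500 UMIs. Thinning dropped 147 CD4-Cre and 145 F/F cells that were shallower. In macrophage-like cells the shares were 3 of 320 (0.938%) in CD4-Cre and 5 of 488 (1.02%) in F/F. In macrophage-like cells thinned likewise, Rsad2 was found in 2 of 7 CD4-Cre cells with an Ifit3 UMI and in 1.92% of those without, and in 2 of 12 F/F cells with one and 1.89% of those without. Without thinning, 0.279% of CD4-Cre and 0.413% of F/F cells passed, with median depths of 14031 and 15319.5 UMIs. In CD4 T-like cells thinned likewise, Gbp7 was found in 26 of 70 CD4-Cre cells with a Gbp2 UMI (37.1%) and in 16.6% of those without, and in 10 of 30 F/F cells with one (33.3%) and 15.1% of those without. Other classes varied: in CD8 T-like cells it was found in 1 of 21 CD4-Cre cells with a Gbp2 UMI (4.76%) and 14.8% of those without, and in 4 of 11 F/F cells with one (36.4%) and 6.72% of those without. Innate-like T-like cells had 18.2% with and 14.6% without in CD4-Cre, and 22.7% with and 14.1% without in F/F.

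For the comparison of genotypes, a member was counted as apart when it had at least 100 UMIs over both libraries in a class and a ratio of CD4-Cre over F/F of at least 1.5 or at most its inverse. Intervals of ratios are exact 95% intervals of the UMI split and cover counting error only, so they leave out variation between mice and between cells. Over the 8 compared classes 130 pairs of a member and a class had enough UMIs, and 6 were higher and 9 lower in CD4-Cre. When ratios were centred on the median of all genes in the class, 0 were higher and 10 lower. The median of all genes was 0.11 on the log2 scale in CD8 T-like cells, 0.08 in CD4 T-like and gamma-delta T-like cells, and between -0.02 and 0.04 in the other 5 classes.

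In plasma-like cells 0 of 27 members were higher and 3 lower, beside 0.923% and 1.64% of all 11481 genes with enough UMIs. The members' median log2 ratio was -0.08, against 0.03 for all genes. Cycling plasma-like cells had 1 of 20 members higher and 2 lower, beside 0.763% and 1.47% of all genes, with medians of -0.01 and 0.04. Among 21 members in CD4 T-like cells, 2 were higher and 1 lower, beside 2.42% and 0.794%, with medians of 0.07 for members and 0.08 for all genes. CD8 T-like cells, 346 in CD4-Cre and 130 in F/F, had 2 of 10 members higher and 1 lower, beside 7.83% and 2.36%, with medians of 0.21 and 0.11. Gamma-delta T-like cells had 1 of 5 members higher and 0 lower, beside 3.8% and 1.14%, with medians of 0.36 and 0.08. Innate-like T-like cells had 0 of 14 higher and 0 lower, beside 2.2% and 1.43%, with medians of -0.05 and 0.04. Macrophage-like cells had 0 of 22 higher and 1 lower, beside 1.37% and 2.55%, with medians of -0.03 and -0.02. In cDC1-like cells 0 of 11 were higher and 1 lower, beside 1.29% and 1.3%, with medians of -0.08 and 0.04. Of the 9 lower pairs, 5 were Ifi27l2a.

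**Figure D2:**
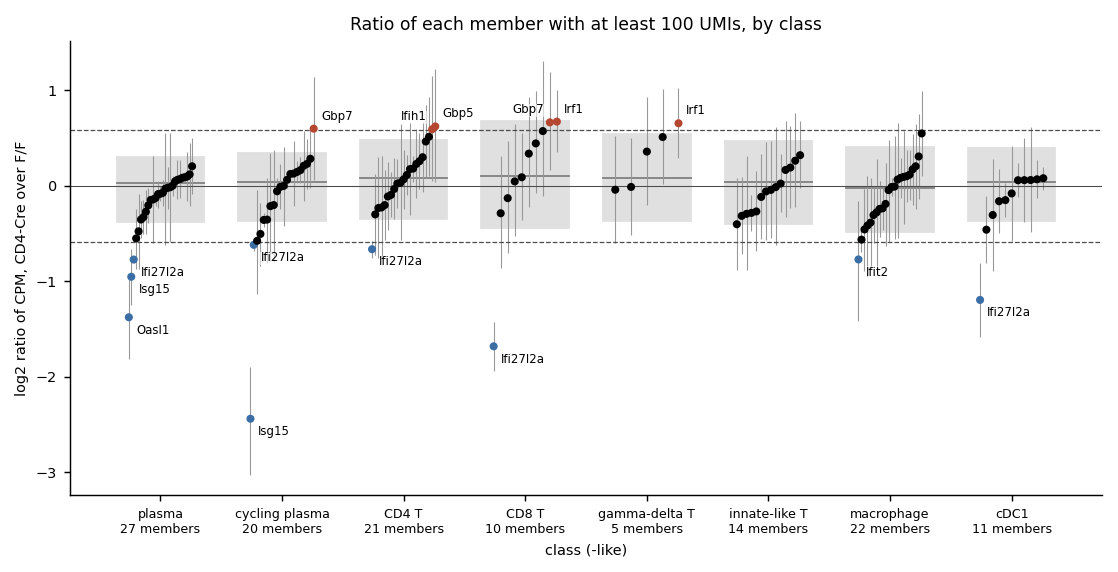
Log2 ratio of CPM, CD4-Cre over F/F, for each member with at least 100 UMIs (points, with exact 95% counting intervals) in 8 classes. Grey boxes span the 5th to 95th percentile of all genes with enough UMIs and the grey line in each is their median, and dashed lines mark a ratio of 1.5 and its inverse. Coloured points are the 6 higher and 9 lower members, and Ifi27l2a lies below the box in 6 classes.

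Ifi27l2a had a ratio interval wholly below 1 in 6 of the 8 classes and was past the fold in 5. It had 152 CPM in CD4-Cre and 259 CPM in F/F plasma-like cells, from 7618 and 15443 UMIs, a ratio of 0.586 (0.570 to 0.602). Cycling plasma-like cells had 142 and 218 CPM, or 0.652 (0.622 to 0.683). CD4 T-like cells gave 0.632 (0.593 to 0.673), and CD8 T-like cells 0.312 (0.262 to 0.372) from 165 CPM in CD4-Cre and 527 CPM in F/F. In cDC1-like cells it had 18.1 and 41.4 CPM, a ratio of 0.437 (0.333 to 0.570), which was 1.02 after thinning to 1500 UMIs. Macrophage-like cells were at 0.677 (0.618 to 0.741), just inside the fold. Gamma-delta T-like cells, at 84.6 CPM in CD4-Cre and 85.3 CPM in F/F (0.992, 0.698 to 1.415), and innate-like T-like cells (0.923, 0.681 to 1.26) had intervals that include 1.

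The lower level of Ifi27l2a was also seen within clusters, which are parts of the same pools and not replicates. The like count for all genes was not computed. Of the 19 clusters that make up the 8 classes, 18 had a ratio below 1 and 14 an interval wholly below 1. The 3 CD4 T-like clusters had ratios of 0.673, 0.621 and 0.647, and the 3 macrophage-like clusters 0.675, 0.633 and 0.711. CD8 T-like cells were 1 cluster, in which 5 cells held 117 of the 292 F/F UMIs and 5 held 40 of the 237 CD4-Cre UMIs, and the ratio without those cells was 0.433. The fixed list of 10 CD8 T markers, which were all above 0, summed to 22302 CPM in CD4-Cre and 19376 CPM in F/F there. Of this Ccl5 gave 15496 and 13303 CPM, and Itgae went the other way, at 257 and 314 CPM. The 9 monocyte markers summed to 532 CPM, with 2 at 0, and 302 CPM, with 5 at 0. The 16 macrophage markers summed to 124 CPM, with 5 at 0, and 107 CPM, with 8 at 0. Cd4 had 51.4 CPM in CD4-Cre, from 74 UMIs, and 12.6 CPM in F/F, from 7 UMIs. In cDC1-like cells 11 gamma-delta T markers summed to 129 CPM in CD4-Cre and 62.3 CPM in F/F. Other T cell lists lay closer together there, with CD4 T markers at 80.5 and 75.5 CPM and CD8 T markers at 686 and 579 CPM. Innate-like T markers were at 20.8 and 20.1 CPM. Free RNA moved the same way: in barcodes of 150 to 350 UMIs Ifi27l2a had 192 CPM in CD4-Cre and 261 CPM in F/F, a ratio of 0.734 (0.688 to 0.783), and in barcodes of 10 to 100 UMIs 145 and 160 CPM (0.907, 0.712 to 1.15). The part of these markers and of free RNA in the class ratios was not tested.

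**Figure D3:**
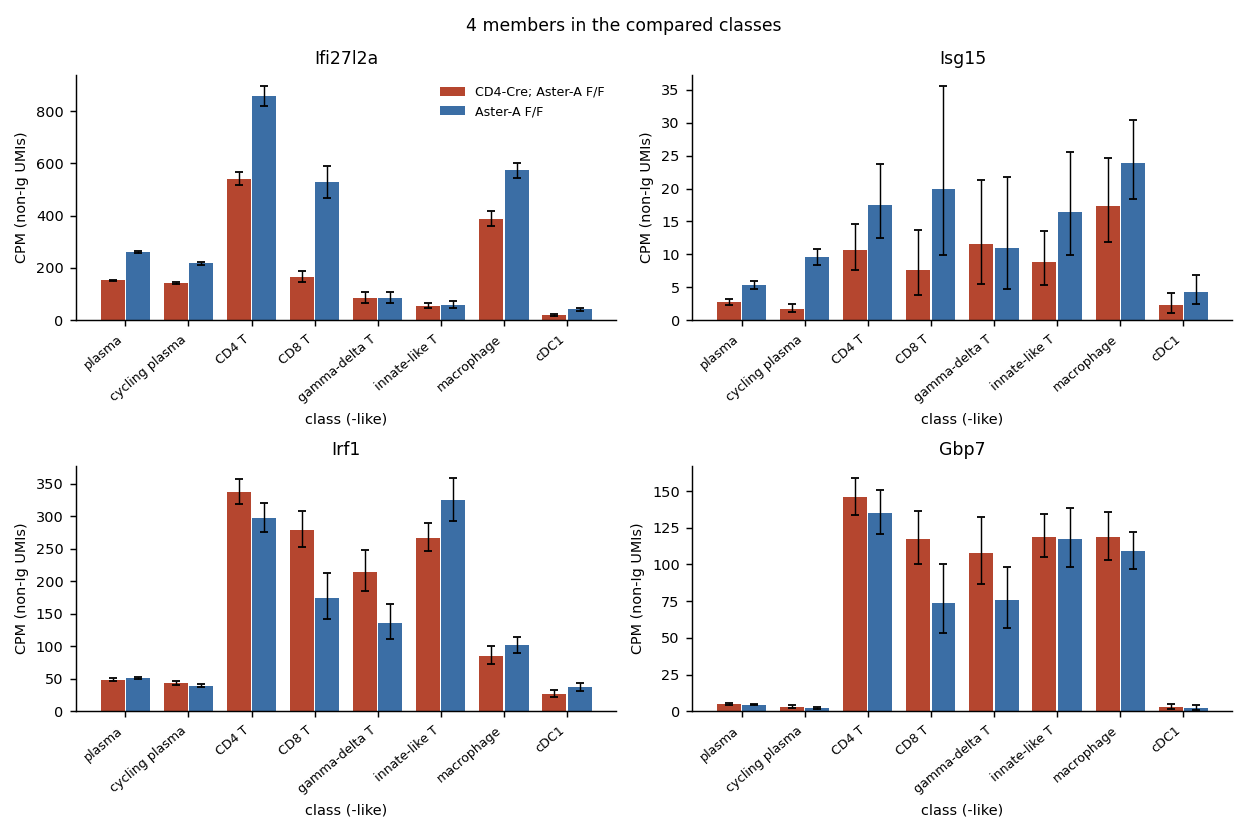
Level of Ifi27l2a, Isg15, Irf1 and Gbp7 in the 8 compared classes, in CPM over non-immunoglobulin UMIs, with CD4-Cre; Aster-A F/F in red and Aster-A F/F in blue. Bars are 1 pool each and error bars are exact Poisson 95% intervals. Ifi27l2a is lower in CD4-Cre in CD4 T-like, CD8 T-like, plasma-like and macrophage-like cells but level in gamma-delta T-like and innate-like T-like cells, and Irf1 is higher in CD4-Cre in CD8 T-like and gamma-delta T-like cells.

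Isg15 was lower in CD4-Cre in both plasma classes. It had 2.75 CPM in CD4-Cre and 5.32 CPM in F/F plasma-like cells, from 138 and 317 UMIs, a ratio of 0.517 (0.420 to 0.634). Cycling plasma-like cells had 1.76 and 9.53 CPM, from 31 and 263 UMIs, a ratio of 0.185 (0.123 to 0.268), and 5 cells held 20 of the CD4-Cre UMIs and 94 of the F/F UMIs. Without those cells the ratio was 0.102, and over 13 alternative settings it ran from 0.101 to 0.310, past both ends of the interval. In each other compared class Isg15 had fewer than 100 UMIs. Free RNA of 150 to 350 UMIs held it at 3.90 CPM in CD4-Cre and 6.13 CPM in F/F (0.637, 0.399 to 1.002), and its part in these ratios was not tested. Oasl1, which in mouse restrains translation of Irf7, had 1.22 CPM in CD4-Cre and 3.16 CPM in F/F plasma-like cells, from 61 and 188 UMIs, a ratio of 0.385 (0.284 to 0.517). In free RNA Oasl1 had 10 UMIs in each library. Irf7 had 7.38 and 9.42 CPM in plasma-like cells (0.783, 0.685 to 0.895), short of the fold, and Stat2 had 6.47 and 9.17 CPM in cycling plasma-like cells (0.706, 0.561 to 0.884).

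Most of the type I weighted sum in plasma-like, CD4 T-like, CD8 T-like and macrophage-like cells was Ifi27l2a. The 17 type I weighted members summed to 178 CPM in CD4-Cre and 294 CPM in F/F plasma-like cells, of which Ifi27l2a was 85.2% and 88.3%, and without it to 26.4 and 34.2 CPM. In CD4 T-like cells they summed to 646 and 983 CPM, and to 105 and 126 CPM without it. CD8 T-like cells had 284 and 674 CPM, and 119 and 146 CPM without it. In macrophage-like cells the sums were 722 and 900 CPM, and 333 and 326 CPM without it. The 10 type II weighted members summed to 780 CPM in CD4-Cre and 677 CPM in F/F CD4 T-like cells, 641 and 479 CPM in CD8 T-like cells, 633 and 699 CPM in innate-like T-like cells, and 460 and 465 CPM in macrophage-like cells.

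**Figure D4:**
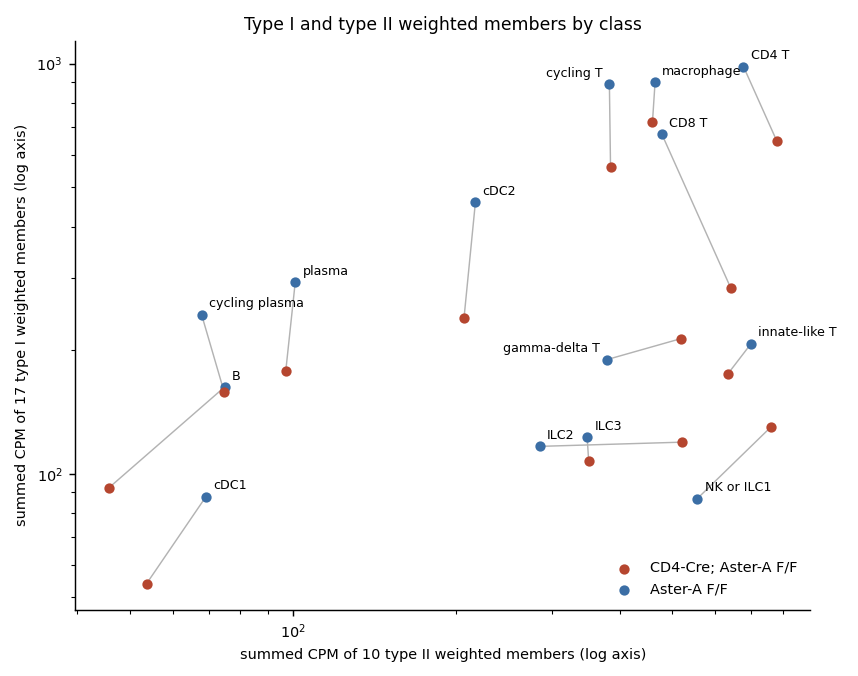
Summed CPM of 10 type II weighted members (horizontal, log axis) and 17 type I weighted members (vertical, log axis) in 14 classes, with CD4-Cre; Aster-A F/F in red, Aster-A F/F in blue and a line joining the pools of a class. CD4 T-like cells are high on both axes, at 780 and 646 CPM in CD4-Cre and 677 and 983 CPM in F/F, and most lines run downward from F/F to CD4-Cre.

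Irf1 differed in direction between T-lineage classes. It had 279 CPM in CD4-Cre and 175 CPM in F/F CD8 T-like cells, from 402 and 97 UMIs, a ratio of 1.59 (1.27 to 2.01). In gamma-delta T-like cells it had 215 and 136 CPM, from 185 and 99 UMIs, a ratio of 1.575 (1.23 to 2.03). Of the 2 gamma-delta T-like clusters, that led by Gzma and Trdc had 227 CPM in CD4-Cre and 104 CPM in F/F (2.19, 1.62 to 3.01). The cluster led by Cd163l1 and Trdv4, of 62 CD4-Cre and 40 F/F cells, had 173 and 264 CPM. Its values came from 35 and 39 UMIs, and its ratio interval includes 1 (0.655, 0.403 to 1.06). CD4 T-like cells were at 1.13 (1.03 to 1.246), innate-like T-like cells at 0.822 (0.722 to 0.937), and cDC1-like cells at 0.728 (0.571 to 0.926). Neither higher ratio kept the fold when centred on all genes or when cells were thinned to 1500 UMIs. In CD8 T-like cells Cd4 had 51.4 CPM in CD4-Cre and 12.6 CPM in F/F. The part of cells with Cd4 in the Irf1 ratio was not tested.

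Among the GTPases, Gbp7 had 117 CPM in CD4-Cre and 74.0 CPM in F/F CD8 T-like cells, a ratio of 1.59 (1.12 to 2.29) that passed the fold in 11 of 14 alternative settings, and 3.35 and 2.21 CPM in cycling plasma-like cells (1.51, 1.04 to 2.20), where it passed the fold in only 4 of 13 alternative settings. In CD4 T-like cells Gbp7 was at 1.08 (0.939 to 1.248). Free RNA of 150 to 350 UMIs held Gbp7 at 15.9 CPM in CD4-Cre and 10.7 CPM in F/F (1.48, 1.13 to 1.95), and its part was not tested. Gbp5 had 23.6 CPM in CD4-Cre and 15.3 CPM in F/F CD4 T-like cells, from 84 and 36 UMIs, a ratio of 1.54 (1.03 to 2.34). Gbp2, also on chromosome 3, was at 1.38 (1.06 to 1.80) and Gbp3 at 1.43 (1.08 to 1.91). Ifih1 had 27.0 and 17.9 CPM in CD4 T-like cells, from 96 and 42 UMIs, a ratio of 1.51 (1.04 to 2.22), which passed the fold in 9 of 14 alternative settings. Of the 9 type II weighted members that reached 100 UMIs there, 8 had a ratio above 1 and their median log2 ratio was 0.23, against 0.08 for all genes. The quartiles of all genes were -0.07 and 0.22, so most genes also lay above 1. The exact share of all genes above 1 was not computed. Macrophage markers, 16 in number, summed to 155 CPM, with 3 at 0, in CD4-Cre and 98.8 CPM, with 5 at 0, in F/F CD4 T-like cells, and their part in these ratios was not tested.

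Macrophage-like cells had 1 member apart. Ifit2, an IFIT protein, had 17.4 CPM in CD4-Cre and 29.7 CPM in F/F, from 31 and 81 UMIs, a ratio of 0.586 (0.374 to 0.897). Few cells moved the value, since 5 cells held 21 of the 31 CD4-Cre UMIs and 5 held 23 of the 81 F/F UMIs. Without them the ratio was 0.264, further from 1. The lower ratio rested on 1 cluster: the cluster led by Itga9, Mmp13 and Pf4 had 6.63 CPM in CD4-Cre and 34.4 CPM in F/F, and the cluster led by Ccl9, Ccl6 and Lyz2 had 24.7 and 26.1 CPM. Without the first of these clusters the ratio was 0.876. Under the 3 clusterings with a larger monocyte-like class it was 0.255, 0.259 and 0.282, and the median log2 ratio of the members in macrophage-like cells was -0.29, -0.30 and -0.29. The classes held different shares of each cluster, 150 of 353 CD4-Cre and 274 of 527 F/F macrophage-like cells being in the first.

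Ligands and receptors of the pathway gave the setting of these levels. The type I and III interferon genes with a row, 19 in number, held 3 Ifna2 and 2 Ifnk UMIs in CD4-Cre and 2 Ifnk UMIs in F/F over all kept cells, and the other 17 had 0. Ifng, the type II interferon, had 731 UMIs in CD4-Cre and 623 in F/F. It stood at 109 CPM in CD4-Cre and 161 CPM in F/F innate-like T-like cells (0.679, 0.560 to 0.826), and at 34.3 and 34.9 CPM in CD4 T-like cells (0.981, 0.736 to 1.31). Of 6 receptor genes, between 2 (gamma-delta T-like) and 5 (plasma-like) had enough UMIs in a compared class, and 0 of these were apart in any of the 8 classes. Of all genes, between 0.763% and 7.83% were higher by class and between 0.794% and 2.55% lower. With so few receptor genes, a count of 0 cannot be told from these shares. Ifngr1 had 577 CPM in CD4-Cre and 554 CPM in F/F CD4 T-like cells, against 12.6 and 10.3 CPM in plasma-like cells, and Ifnar2 had 217 and 206 CPM in plasma-like cells and 74.4 and 76.6 CPM in CD4 T-like cells. Ifnar1 had 71.6 CPM in CD4-Cre and 62.6 CPM in F/F CD4 T-like cells.

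Jak1, a kinase bound to both receptor types, had 371 CPM in CD4-Cre and 324 CPM in F/F CD4 T-like cells. Of 14 sensors and adaptors, between 1 (gamma-delta T-like) and 9 (plasma-like) had enough UMIs in a class. Only Ddx58, the sensor RIG-I, was apart, in CD8 T-like cells, where 2 had enough UMIs. Ddx58 had 57.0 CPM in CD4-Cre and 34.3 CPM in F/F there (1.66, 0.999 to 2.90), beside 7.83% of all genes higher. Of 6 genes of restraint, between 2 (CD8 T-like) and 5 (CD4 T-like) had enough UMIs in a class, and 0 of these were apart. These too were so few that 0 cannot be told from the shares of all genes given for the receptors.

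A further 52 response genes, not members, were counted likewise, with the share of all genes beside each count. Higher was 1 gene in each of CD4 T-like (38 with enough UMIs, 2.42%), gamma-delta T-like (18, 3.8%), macrophage-like (42, 1.37%) and cDC1-like cells (32, 1.29%). Lower was 1 gene in each of plasma-like (39, 1.64%), cycling plasma-like (33, 1.47%) and cDC1-like cells (1.3%), and 2 in macrophage-like cells (2.55%). In CD8 T-like (19) and innate-like T-like cells (26) 0 were apart. The counts were not tested against these shares. The genes named next were chosen after their values were seen. Cxcl10, a chemokine induced by type II interferon, went in different directions: it had 12.9 CPM in CD4-Cre and 22.8 CPM in F/F plasma-like cells (0.568, 0.516 to 0.624), 67.3 and 33.7 CPM in macrophage-like cells (2.00, 1.51 to 2.65), and 20.6 and 4.32 CPM in cDC1-like cells (4.76, 2.83 to 8.50). Cxcl9, a related chemokine, had 112 CPM in CD4-Cre and 209 CPM in F/F cDC1-like cells (0.534, 0.478 to 0.595). Gbp6 was at 1.52 in CD4 T-like cells, Psme2 at 1.503 in gamma-delta T-like cells, Slfn2 at 0.620 in cycling plasma-like cells, and Ifi213 and Parp9 at 0.627 and 0.657 in macrophage-like cells. The most abundant genes of this list, B2m, Ly6e and H2-K1, were apart in no compared class.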

How the data were processed

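Gene expression was measured by droplet sequencing (10x Genomics, 3′ ends) in 1 pool per genotype. Per the submitters' processing notes, the authors used Cell Ranger 7.2.0 with mm10 (GRCm38) and Seurat 5.0.1, and they deposited unfiltered UMI counts per gene and barcode, used here unchanged. The Seurat steps and any cell type calls were not used here. Total UMIs were 200580083 in CD4-Cre and 222838658 in F/F.

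Cells had at least 1000 UMIs, 500 genes and at most 10% mitochondrial UMIs. They were clustered with scanpy 1.11.5 (Leiden, resolution 1, raised by 1.5 within a second level, 2000 variable genes, 30 components, 15 neighbours, seed 1) without immunoglobulin, T cell receptor, ribosomal and mitochondrial genes, Gramd1a, the members, and 74 genes that differed more than 4-fold in free RNA. Clusters were named from listed markers, with limits on immunoglobulin share and on Trdc, Cd3e and coreceptor detection that were set after seeing the data. Mixed clusters stayed unnamed, and so did T cell clusters that met the rules of no single class. Among these, 143 cells led by Il17a and Il22 had Cd4 in 83.2%, and clusters of 219 and 185 cells had Trdc in 72.1% and 69.7%. Another of 528 cells had Cd3e in 75.6%. The CD4 T-like and gamma-delta T-like classes leave these cells out. Doublet calling with Scrublet marked 0 cells in either library and so did not work, and doublets remain.

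UMIs were summed per class and library. Intervals are exact (Poisson for levels, Clopper-Pearson for shares and UMI splits, 95%) and cover counting error only. The calculation was tested on simulated pools. Near-identical genes (Ifit3 and Ifit3b, the Gbp cluster, the Oas family) could exchange reads and are uncertain. Named members were the 3 highest per class, up to 6 apart per direction and class, and Irf1, Irf7, Irf9, Stat2, Isg15, Ifit1, Ifit3, Gbp2, Ifi27l2a and Bst2. From the other pathway lists came the 3 genes with the most UMIs, and others are marked in the text. Lists and members were chosen with earlier results of these data known. Positions came from GENCODE M21 and promoters from RefSeq. Alternatives covered scaling, filters, clustering, doublet scores, depth, single cells and the UMI minimum. 1 gene of the pathway lists is not reported here.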

Additional observations from a re-analysis of the deposited data

Results flagged for a closer look

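Irf1 was singled out because its ratio of CD4-Cre over F/F had an interval above 1 in some classes and below 1 in others. It was 1.59 in CD8 T-like and 1.575 in gamma-delta T-like cells, and 0.944, 0.822 and 0.728 in plasma-like, innate-like T-like and cDC1-like cells, and the difference between classes was not tested. Barcodes of 150 to 350 UMIs, which no comparison of cells uses, gave ratios with intervals on both sides of 1. Above 1 were Gbp7 at 1.48 (1.13 to 1.95), Gbp2 at 1.47 (1.01 to 2.15), Trim30a at 1.32 (1.10 to 1.58) and Bst2 at 1.08 (1.04 to 1.13). Below 1 were Cmpk2 at 0.505 (0.272 to 0.904) and Ifi27l2a at 0.734 (0.688 to 0.783). The share of all genes with such intervals was not computed.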

How the results depend on the processing

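No paired analysis was possible because each genotype was 1 pool, and for the same reason no replicate could be left out. The 6 higher pairs of a member and a class became 0 when ratios were centred on the median of all genes, 3 at a limit of 5% mitochondrial UMIs, 3 at clustering resolution 2, 3 with free RNA genes allowed in the clustering, 0 with cells thinned to 1500 UMIs and 11 with at least 50 UMIs. The 9 lower pairs became 4 under thinning and were between 9 and 13 under the other 12 alternatives. Under thinning the median log2 ratio was -0.63 in CD8 T-like cells and Ifi27l2a was at 1.02 in cDC1-like cells. The cause was not tested, apart from the fewer members that thinning leaves with enough UMIs. The other 111 of 112 medians lay within the median of the members' counting intervals at the main settings. Ifi27l2a passed the fold in 14 of 14 alternatives in CD4 T-like and CD8 T-like cells and 13 of 13 in plasma-like cells, but in 10 of 13 in cycling plasma-like and 12 of 14 in cDC1-like cells, where it was also lost at resolution 2, and Isg15 and Oasl1 in 13 of 13 in plasma-like cells. Irf1 passed in 10 of 14 in CD8 T-like and 8 of 14 in gamma-delta T-like cells. With CPM over all genes the members summed to 817 in plasma-like cells (1780 without immunoglobulin UMIs), 1976 in CD4 T-like cells (2054) and 2675 in macrophage-like cells (2757), over both libraries. Without thinning, cells with 3 or more signature genes were 0.279% in CD4-Cre and 0.413% in F/F, and 2.83% and 3.61% of macrophage-like cells. Leaving out cells over 10% immunoglobulin UMIs applied to the 6 classes other than plasma. Leaving out shared barcodes or 1 macrophage-like cluster was chosen after seeing the data, and without the cluster led by Itga9 Ifit2 was at 0.876. Depth limits the IFIT members outside macrophage-like cells and every class under 100 cells.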

Other observations

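Classes with under 100 cells in a library were not compared, and the values here were chosen after they were seen. Monocyte-like cells, 35 in CD4-Cre and 24 in F/F, had the highest summed member level of the 18 named classes in both libraries, 5247 CPM in CD4-Cre and 8639 CPM in F/F. Ifitm3 gave 3138 and 4832 CPM of this. Their type I weighted sum was 900 CPM in CD4-Cre and 2317 CPM in F/F, and without Ifi27l2a 265 and 1200 CPM. Irf7 had 44.2 CPM in CD4-Cre and 206 CPM in F/F monocyte-like cells, from 11 and 27 UMIs, and Rsad2, the antiviral enzyme viperin, had 16.1 and 153 CPM, from 4 and 20 UMIs. Only 2 cells in each library carried 3 or more signature genes there at full depth. Irf1 had 267 CPM in CD4-Cre and 77.7 CPM in F/F ILC2-like cells, from 67 and 12 UMIs.

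Below the limit of 100 UMIs, Ifih1 had 19.8 CPM in CD4-Cre and 6.03 CPM in F/F innate-like T-like cells, from 45 and 7 UMIs. Rsad2 had 43.3 CPM in CD4-Cre and 13.1 CPM in F/F in the macrophage-like cluster led by Ccl9, Ccl6 and Lyz2, from 42 and 18 UMIs, and 8.29 and 15.5 CPM in the cluster led by Itga9, Mmp13 and Pf4, from 5 and 18 UMIs.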
